A study of Homo sapiens with 6 samples.

Results

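The 43 genes described here carry glucose through glycolysis or answer to low oxygen. They are glucose transporters, glycolytic enzymes, enzymes of fructose-2,6-bisphosphate, lactate dehydrogenases and lactate transporters, pyruvate dehydrogenase kinases, the glucose-responsive arrestins TXNIP and ARRDC4, both main HIF alpha subunits and other targets of HIF. They were chosen by symbol for their known function, with no measured value in the rule, and all 43 have a row among the 25445 rows of the table. The cells were MHCC-97H, an established human liver cancer line that was grown in DMEM with serum. They received 10 μM of 6j, a small molecule known by this code, or the solvent alone, for 16 h, and poly(A) RNA was sequenced in 3 libraries per group. The labels of the control libraries give the treatment as none, while the protocol names a solvent. Both groups are the same line with no genetic change. The labels do not say that the 3 libraries of a group came from separate cultures, so p-values measure only the spread between these libraries, which may be technical.

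Glycolysis turns glucose into pyruvate in a fixed series of enzyme steps, and most steps can be run by several isozymes from different genes. Tumour cells commonly send the pyruvate to lactate, through lactate dehydrogenase and the monocarboxylate transporters, and hold it back from mitochondria through the pyruvate dehydrogenase kinases. HIF is a transcription factor of an oxygen-labile alpha subunit and a stable beta subunit. When oxygen is short the prolyl hydroxylases (the EGLN genes) stop marking the alpha subunit for VHL, and HIF binds short motifs at genes of glucose uptake, glycolysis, blood vessel growth and acid balance.

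The libraries held 31533403 to 38018349 counts each. Values below are CPM (counts per 1000000 counts of a library, scaled by edgeR's TMM factors), and 15957 rows had enough counts for a test. Against the label of a liver cell, the hepatocyte markers ALB, AFP, APOA1, APOB, TTR, SERPINA1, FGB and TF were at 0 to 0.262 CPM in every library and HNF4A was at 0.546 to 1.40 CPM. The keratins KRT8 (369 to 653 CPM) and KRT18 (320 to 456 CPM) were abundant, whereas EPCAM was at 0 and CDH1 did not pass 0.345 CPM. KRT8 fell by 0.58 on the log2 scale with 6j (adjusted p = 0.0211, edgeR's quasi-likelihood test), and its part in the results below was not tested. Of the markers of other cells, PTPRC and COL1A2 were at 0, DCN did not pass 0.201 CPM and PECAM1 did not pass 0.776 CPM, while CDH5 lay at 1.41 to 5.93 CPM. CD68 (39.8 to 70.5 CPM) and COL1A1 (203 to 275 CPM) were present in both groups. In bulk RNA, fewer cells of a type and less RNA per cell cannot be told apart.

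Of the 43 genes, 42 had enough counts for a test. The exception was CA12, a carbonic anhydrase of the cell surface, with 9 counts in control replicate 1 and 0 in the other 5 libraries, where a count of 0 allows up to 0.0789 to 0.0951 CPM. A gene was called a DEG when edgeR's quasi-likelihood test gave it a Benjamini-Hochberg adjusted p under 0.05, over all rows, with a fold change above 1.5. By this rule 3 of the 42 genes were DEGs, PFKFB2, EPAS1 and VEGFA, and all 3 rose. That is 7.14% of the genes described here, beside 3.60% of all rows tested, and 2.48% of all rows were DEGs that rose. Another 2 genes, LDHB and PFKM, passed the adjusted p and fell by less than the fold threshold. In all 11.9% of the genes passed the adjusted p, beside 9.16% of all rows (1462 rows). Those that passed and were lower made up 4.37% of all rows (697 rows). The 3 libraries of 6j lay wholly above or wholly below the 3 controls in 7 genes, which is 16.7% of them beside 31.7% of all rows. Of these 7, PFKFB2, EPAS1, VEGFA, P4HA2 and BHLHE40 were higher with 6j, and PFKM and LDHB were lower. Over all rows 16.0% lay wholly higher and 15.8% wholly lower.

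**Figure D1:**
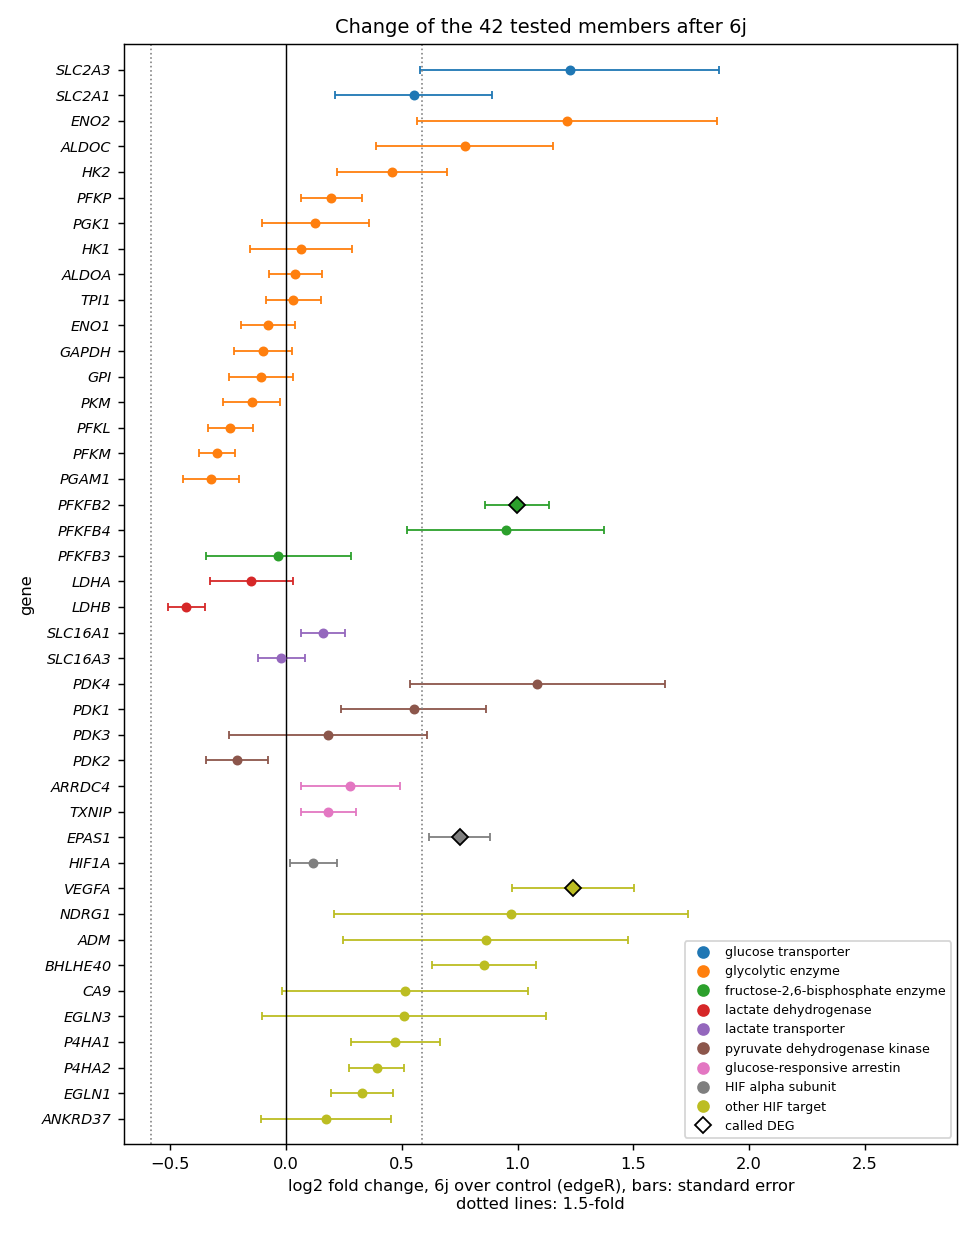
Log2 fold change of 6j over control for the 42 genes tested, grouped by role, with bars of 1 standard error and dotted lines at a fold change of 1.5. Diamonds mark the 3 DEGs (PFKFB2, EPAS1 and VEGFA), and several genes with estimates near or above 1 have bars too wide for a call (ENO2, SLC2A3 and NDRG1).

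PFKFB2, which makes and breaks down the fructose-2,6-bisphosphate that speeds up phosphofructokinase, had the firmest change of the 43 genes. It lies at chr1:207034366-207081024 (ENSG00000123836, GRCh38, plus strand). It stood at 75.5, 95.1 and 71.7 CPM in control replicates 1, 2 and 3 and at 137, 184 and 162 CPM in 6j replicates 1, 2 and 3. The lowest 6j library was well above the highest control. The means were 80.8 ± 12.6 and 161 ± 23.8 CPM (SD, n = 3 per group), and the log2 fold change was 1.00 (SE 0.14, adjusted p = 0.00731, edgeR). PFKFB2 was a DEG in all 6 fits that left out 1 library. Its exons overlap those of YOD1 on the opposite strand, and whether the counting used strand is not given in the sources used here. YOD1 stood at 56.7 to 66.1 CPM in the controls and 65.7 to 88.7 CPM with 6j, a log2 fold change of 0.40 (adjusted p = 0.0727, edgeR).

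EPAS1, which encodes the HIF-2 alpha subunit, lies at chr2:46293667-46386703 (ENSG00000116016, plus strand). The control libraries held 86.5, 102 and 107 CPM of it, and the 6j libraries held 136, 173 and 188 CPM. No library of one group reached the other. The means were 98.5 ± 10.7 and 166 ± 26.8 CPM (SD, n = 3), and EPAS1 rose by 0.75 on the log2 scale (SE 0.13, adjusted p = 0.0127, edgeR). EPAS1 was a DEG in 4 of the 6 fits that left out 1 library, and the adjusted p was 0.0681 without control replicate 1 and 0.0713 without 6j replicate 2. HIF1A, the gene of the HIF-1 alpha subunit, had 417, 489 and 402 CPM in the controls and 437, 491 and 491 CPM with 6j. These ranges overlap, and its log2 fold change was 0.12 (SE 0.10, adjusted p = 0.515, edgeR). Per kilobase of exon, HIF1A had 84.6 CPM and EPAS1 13.5 CPM on average in the controls.

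VEGFA, the growth factor that draws in blood vessels, lies at chr6:43770184-43786487 (ENSG00000112715, plus strand). Its level was 192, 227 and 236 CPM in the controls and 341, 492 and 710 CPM with 6j. The groups do not overlap, but the 6j libraries were far apart, the highest of them being replicate 3. The means were 218 ± 23.2 and 514 ± 185 CPM (SD, n = 3), and the log2 fold change was 1.24 (SE 0.26, adjusted p = 0.0393, edgeR), the largest of the 42 genes. The call was less firm than that of PFKFB2. VEGFA was a DEG in 2 of the 6 fits that left out 1 library, with adjusted p of 0.14, 0.12 and 0.111 without control replicates 1, 2 and 3 and 0.122 without 6j replicate 2, and it was 0.0909 with no filter on low counts.

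**Figure D2:**
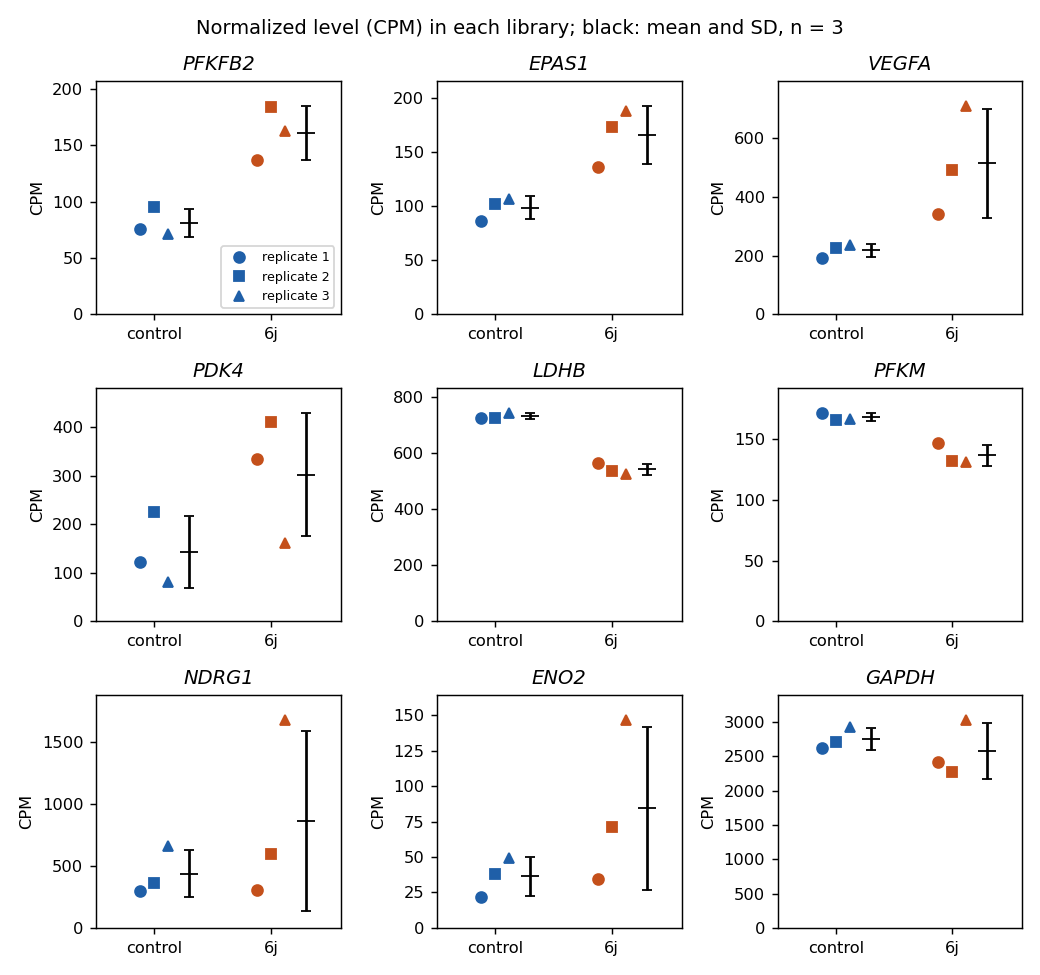
Normalized level in CPM of 9 genes in each of the 6 libraries, with the replicate number as the symbol and the mean and SD (n = 3) in black. PFKFB2, EPAS1 and VEGFA are higher and LDHB and PFKM lower in every 6j library, whereas the groups overlap in PDK4, NDRG1, ENO2 and GAPDH.

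HIF binds the short core ACGTG or GCGTG, which reads CACGT or CACGC on the other strand, and these letters were searched on both strands in the 250 bases before annotated transcription starts (RefSeq, GRCh38.p14). The table of promoters matched 38 of the 43 genes, with 68 windows in all, and SLC2A3, VEGFA, NDRG1, PFKFB2 and SLC16A1 had no match. At least 1 core lay in 40 of the 68 windows (58.8%), against 43.2% of the 35116 windows of all genes. Windows of 1 gene can overlap, so they are not independent. Among the glycolytic enzymes 17 of 34 windows held a core, and among the other HIF targets 7 of 9 did (77.8%). These shares weigh genes by their windows, and HK1 and PFKM have many windows, most of them with no core. Counted by gene, all of the 15 enzymes but PGAM1 and PKM had a core in at least 1 window. So did all of the 9 other HIF targets with a window but EGLN3 and P4HA2. A gene with more windows has more chances of a core, and the 15 enzymes had 34 windows against 9 for the 9 targets. The share by gene over all genes was not computed, so the counts by gene have no background beside them. The letters ACGTG alone, or CACGT, were in 26 of the 68 windows (38.2%), against 18.5% of all windows. The following windows are shown because their genes span the range of responses, with the cores in capitals, 5′ to 3′ on the strand of the gene. They are those of EPAS1, which rose, of BHLHE40 and CA9, known HIF targets, and of ENO2, the enzyme with the largest estimate. Last come the lactate dehydrogenases, LDHA (the upstream of its windows), which did not pass the test, and LDHB, which fell.
EPAS1, chr2:46297157-46297406, plus strand: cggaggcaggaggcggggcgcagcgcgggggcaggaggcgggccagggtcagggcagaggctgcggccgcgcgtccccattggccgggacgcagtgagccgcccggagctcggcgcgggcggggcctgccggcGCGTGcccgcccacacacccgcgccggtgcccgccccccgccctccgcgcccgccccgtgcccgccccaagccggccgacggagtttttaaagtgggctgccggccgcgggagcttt
BHLHE40, chr3:4979187-4979436, plus strand: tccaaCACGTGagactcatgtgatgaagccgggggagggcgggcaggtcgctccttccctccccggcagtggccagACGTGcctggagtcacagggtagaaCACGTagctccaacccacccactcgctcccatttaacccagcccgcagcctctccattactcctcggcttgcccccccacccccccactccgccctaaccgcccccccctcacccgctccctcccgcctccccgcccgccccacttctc
CA9, chr9:35673678-35673927, plus strand: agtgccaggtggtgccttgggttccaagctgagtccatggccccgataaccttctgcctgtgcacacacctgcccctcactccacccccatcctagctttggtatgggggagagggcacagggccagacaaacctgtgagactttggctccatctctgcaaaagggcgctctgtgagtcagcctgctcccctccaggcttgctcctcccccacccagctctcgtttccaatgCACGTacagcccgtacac
ENO2, chr12:6914330-6914579, plus strand: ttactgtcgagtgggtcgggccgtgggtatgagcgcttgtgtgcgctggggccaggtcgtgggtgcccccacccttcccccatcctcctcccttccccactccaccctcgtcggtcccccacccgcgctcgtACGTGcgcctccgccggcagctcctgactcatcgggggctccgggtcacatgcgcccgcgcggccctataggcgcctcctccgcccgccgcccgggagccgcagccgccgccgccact
LDHA, chr11:18394313-18394562, plus strand: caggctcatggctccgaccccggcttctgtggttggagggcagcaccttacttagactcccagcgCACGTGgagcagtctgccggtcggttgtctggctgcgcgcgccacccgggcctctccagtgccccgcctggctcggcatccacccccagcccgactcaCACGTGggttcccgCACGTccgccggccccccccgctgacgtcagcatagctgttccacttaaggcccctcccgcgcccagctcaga
LDHB, chr12:21657843-21658092, minus strand: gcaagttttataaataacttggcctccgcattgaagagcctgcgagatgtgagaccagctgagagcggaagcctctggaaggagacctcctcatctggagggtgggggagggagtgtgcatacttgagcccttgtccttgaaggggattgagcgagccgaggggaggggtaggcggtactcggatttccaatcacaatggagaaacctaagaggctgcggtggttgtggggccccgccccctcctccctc

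The EPAS1 window has a single core that begins 117 bases before the start, ENO2 has one at 118 bases and CA9 one at 18 bases. BHLHE40 has 4 matches in 3 stretches, since a palindrome such as CACGTG is read on both strands. LDHA has 5 matches in 3 stretches, and LDHB has 0. A match is a string of letters and not a measured binding site, and no match says only that these letters are not in this window.

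Neither glucose transporter passed the test, and both differed widely between replicate numbers. SLC2A1 (GLUT1), the basal transporter of most tissues, had 102, 128 and 155 CPM in control replicates 1, 2 and 3 and 118, 176 and 270 CPM in 6j replicates 1, 2 and 3. Each 6j library was above the control of the same number, but the ranges overlap, and the log2 fold change of 0.55 (SE 0.34) had an adjusted p of 0.384 (edgeR). SLC2A3 (GLUT3), the high-affinity transporter, had 29.4, 38.2 and 59.5 CPM in the controls and 41.6, 78.9 and 177 CPM with 6j. Its log2 fold change of 1.22 was nearly as large as that of VEGFA, with a far larger error (SE 0.65, adjusted p = 0.326, edgeR). Replicate 3 was the highest of both groups for both transporters. SLC2A14, a near-identical copy of SLC2A3, had 0.0287 to 0.611 CPM, and reads of the pair cannot be told apart with certainty.

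The glycolytic enzymes gave 0 DEGs among 15 genes, with 3 of them at an unadjusted p under 0.05, as were 26.2% of all rows, and DESeq2 gave 0 as well. Their log2 fold changes ran from −0.32 to 1.21 around a median of 0.03, and 8 were higher and 7 lower with 6j. GAPDH, the gene most abundant per kilobase of exon (923 CPM per kb in the controls), had 2616, 2710 and 2930 CPM in the controls and 2408, 2269 and 3032 CPM with 6j. The groups overlap, and the log2 fold change was −0.10 (SE 0.12, adjusted p = 0.673, edgeR). GAPDH has 62 annotated genes named as its pseudogenes, and reads from near-identical copies cannot be assigned with certainty. ENO1, the common enolase, was at 3085, 2974 and 3299 CPM in the controls and at 2776, 2688 and 3400 CPM with 6j. The log2 fold change of ENO1 was −0.08 (adjusted p = 0.723, edgeR).

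The largest estimates among the enzymes were those of ENO2 and ALDOC, which are less abundant here than ENO1 and ALDOA, followed by HK2, which is more abundant here than HK1. ENO2, the enolase of neurons, had 22.1, 37.8 and 49.2 CPM in the controls and 34.8, 71.1 and 147 CPM with 6j, a log2 fold change of 1.21 (SE 0.65, adjusted p = 0.333, edgeR). ALDOC, the aldolase of brain, had 48.0, 55.0 and 62.8 CPM in the controls and 57.2, 78.3 and 148 CPM with 6j, a log2 fold change of 0.77 (SE 0.38, adjusted p = 0.285, edgeR). In both genes 6j replicate 1 lay within the control range and 6j replicate 3 was the highest. HK2, the hexokinase common in tumours, had 123, 142 and 126 CPM in the controls and 127, 163 and 249 CPM with 6j, and its log2 fold change of 0.46 had an adjusted p of 0.287 (edgeR). The HK1 log2 fold change was 0.06 (adjusted p = 0.895, edgeR).

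At the lower end stood PFKM, the muscle-type phosphofructokinase, which fell. It lies at chr12:48105139-48146404 (ENSG00000152556, plus strand) and had 172, 166 and 167 CPM in the controls and 147, 133 and 131 CPM with 6j. The control libraries were close together and all above the 6j libraries. PFKM fell by 0.30 on the log2 scale (SE 0.08, adjusted p = 0.0448, edgeR), under the fold threshold, and the adjusted p was under 0.05 in 1 of the 6 fits that left out 1 library. The other phosphofructokinases did not pass the test, with log2 fold changes of −0.24 for PFKL (adjusted p = 0.151) and 0.19 for PFKP (adjusted p = 0.401, edgeR). PGAM1, a phosphoglycerate mutase, had 424, 455 and 534 CPM in the controls and 345, 350 and 435 CPM with 6j. Its log2 fold change of −0.32 (SE 0.12) had an adjusted p of 0.13 (edgeR). The remaining enzymes, GPI, ALDOA, TPI1, PGK1 and PKM, had log2 fold changes of −0.15 to 0.13 and adjusted p of 0.492 to 0.905 (edgeR).

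The other fructose-2,6-bisphosphate enzymes did not pass the test that PFKFB2 passed. PFKFB4 had 27.4, 38.9 and 37.4 CPM in the controls and 32.8, 71.1 and 96.0 CPM with 6j, so that 6j replicate 1 lay among the controls. The log2 fold change of 0.95 was close to that of PFKFB2 but with an SE of 0.42 (adjusted p = 0.243, edgeR). PFKFB4 shares exon sequence on the same strand with UCN2, which had 1.11 to 3.55 CPM. PFKFB3, the isoform best known in tumours and vessels, had 29.7, 27.2 and 41.3 CPM in the controls and 23.8, 24.9 and 47.4 CPM with 6j, a log2 fold change of −0.03 (SE 0.31, adjusted p = 0.964, edgeR). Per kilobase of exon the controls had on average 7.92 CPM of PFKFB2, 5.66 CPM of PFKFB4 and 5.36 CPM of PFKFB3.

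LDHB, the lactate dehydrogenase subunit of heart, fell, and LDHA, the subunit of muscle and tumours, did not pass the test. LDHB lies at chr12:21635342-21757857 (ENSG00000111716, minus strand) and had 726, 725 and 744 CPM in the controls and 564, 538 and 526 CPM with 6j. The groups are far apart beside the spread within each. The means were 732 ± 10.9 and 543 ± 19.5 CPM (SD, n = 3), and LDHB fell by 0.43 on the log2 scale (SE 0.08, adjusted p = 0.0139, edgeR), which is under the fold threshold. The adjusted p stayed under 0.05 in 4 of the 6 fits that left out 1 library. LDHA had 1718, 1582 and 2084 CPM in the controls and 1354, 1408 and 2085 CPM with 6j. Both replicates numbered 3 had nearly the same LDHA level, and the log2 fold change was −0.15 (SE 0.18, adjusted p = 0.651, edgeR). In the controls LDHA had 289 ± 41.8 and LDHB 245 ± 3.65 CPM per kb of exon (SD, n = 3), and the lowest LDHA library was above the highest LDHB library.

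Neither lactate transporter passed the test. SLC16A1 (MCT1) had 216 to 231 CPM in the controls and 221 to 274 CPM with 6j, a log2 fold change of 0.16 (SE 0.09, adjusted p = 0.324, edgeR). SLC16A3 (MCT4), the transporter of lactate-exporting cells and a known HIF target, had 432, 475 and 381 CPM in the controls and 398, 419 and 452 CPM with 6j. The groups overlap in both genes, and the SLC16A3 log2 fold change was −0.02 (SE 0.10, adjusted p = 0.921, edgeR).

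Of the pyruvate dehydrogenase kinases, which switch off the entry of pyruvate into the citrate cycle, PDK4 had the largest estimate and the most uneven replicates. PDK4 (chr7:95583499-95596491, ENSG00000004799, minus strand) had 122, 225 and 80.6 CPM in control replicates 1, 2 and 3 and 335, 410 and 162 CPM in 6j replicates 1, 2 and 3. Replicate 2 was the highest and replicate 3 the lowest in both groups, so that the groups overlap although each 6j library exceeded the control of its number by 1.46, 0.87 and 1.00 on the log2 scale. The log2 fold change was 1.08 (SE 0.55, adjusted p = 0.308, edgeR). In a fit blocked on replicate number it was 1.11 (SE 0.12) with an adjusted p of 0.00111, and PDK4 was then a DEG. PDK1, the kinase best known as a HIF target, had 29.4, 30.0 and 38.4 CPM in the controls and 31.9, 40.0 and 71.4 CPM with 6j, a log2 fold change of 0.55 (adjusted p = 0.337, edgeR). The log2 fold changes of PDK2 (−0.21, adjusted p = 0.365) and PDK3 (0.18, adjusted p = 0.839, edgeR) were smaller. Per kilobase of exon PDK4 was the most abundant of the 4 kinases in the controls, at 31.6 CPM against 2.19 to 5.95 CPM for the others.

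TXNIP and ARRDC4, arrestin-like proteins that limit glucose uptake and whose genes are induced by glucose through MondoA and ChREBP, did not pass the test. TXNIP had 224, 228 and 288 CPM in the controls and 271, 255 and 313 CPM with 6j, a log2 fold change of 0.18 (SE 0.12, adjusted p = 0.385, edgeR). ARRDC4 was scarce, with 4.06 to 6.87 CPM in the controls and 6.38 to 7.22 CPM with 6j (log2 fold change 0.28, adjusted p = 0.463, edgeR).

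All 10 other HIF targets that were tested had a positive estimate, their median log2 fold change was 0.51, and VEGFA alone was a DEG. The median over all rows tested was 0.0046. BHLHE40, a repressor of transcription induced by low oxygen, had 165, 198 and 166 CPM in the controls and 228, 298 and 430 CPM with 6j. The groups do not overlap, and the log2 fold change of 0.85 (SE 0.23) had an adjusted p of 0.0634 in edgeR and 0.000118 in DESeq2, so that DESeq2 called it a DEG. By DESeq2 4 of the 42 genes were DEGs (9.52%), beside 5.55% of the rows it tested. P4HA2, a prolyl hydroxylase of collagen, had 58.5, 63.2 and 57.0 CPM in the controls and 65.8, 76.6 and 91.7 CPM with 6j, with no overlap and a log2 fold change of 0.39 (SE 0.12, adjusted p = 0.0738, edgeR). P4HA1, which acts on the same substrate, had 66.0, 71.5 and 84.6 CPM in the controls and 76.8, 99.6 and 132 CPM with 6j (log2 fold change 0.47, adjusted p = 0.177, edgeR).

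NDRG1, a stress gene strongly induced by low oxygen, was the most uneven of the set. It had 298, 361 and 658 CPM in the controls and 306, 595 and 1681 CPM with 6j. In 6j replicate 1 NDRG1 was at the level of the lowest controls, and the log2 fold change of 0.97 had an SE of 0.77 (adjusted p = 0.51, edgeR). CA9, a carbonic anhydrase of the cell surface, had 96.0, 92.4 and 157 CPM in the controls and 81.3, 138 and 274 CPM with 6j. Per kilobase of exon union CA9 was the most abundant of these targets in the controls (69.0 CPM). That rests on unions of 1670 bases for CA9 and 9823 for NDRG1, which had more CPM. ADM, which encodes the vasodilator adrenomedullin, had 17.0, 27.3 and 35.3 CPM in the controls and 19.2, 44.2 and 81.3 CPM with 6j. EGLN3, an oxygen-sensing prolyl hydroxylase, had 16.4, 25.9 and 42.3 CPM in the controls and 18.0, 36.6 and 65.9 CPM with 6j. In CA9, ADM and EGLN3 the groups overlap, replicate 3 was the highest of its group, and adjusted p was 0.461 to 0.672 (edgeR). EGLN1, the main prolyl hydroxylase, had a log2 fold change of 0.33 (adjusted p = 0.159), and ANKRD37 had one of 0.17 (adjusted p = 0.754, edgeR).

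**Figure D3:**
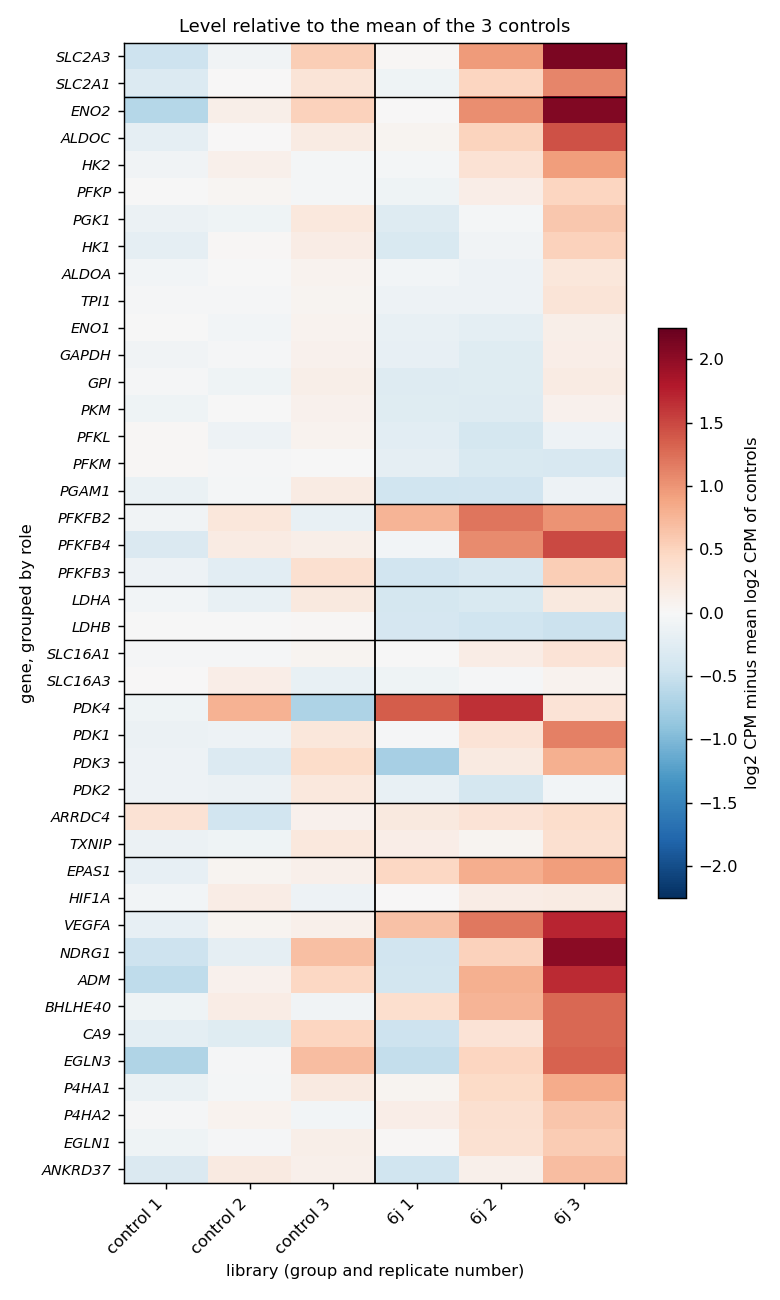
Heat map of log2 CPM minus the mean log2 CPM of the 3 controls for the 42 genes tested (rows, grouped by role) in the 6 libraries (columns, numbered by replicate), red for higher and blue for lower. The column of 6j replicate 3 is the reddest, above all for transporters, ENO2, ALDOC and the HIF targets. LDHB, PFKM, PFKL, PGAM1 and PDK2 are below the control mean in all 3 columns of 6j.

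Replicate 3 was the highest library of both groups in 29 of the 42 genes (69.0%), beside 20.9% of all rows. This held for 12 of the 15 glycolytic enzymes and for 7 of the 10 other HIF targets. In the controls, replicate 3 exceeded the mean of replicates 1 and 2 by a median of 0.24 on the log2 scale in the other HIF targets and 0.14 in the glycolytic enzymes. With 6j it did so by 0.83 and 0.39. Over all rows the medians were −0.00059 in the controls and −0.010 with 6j. What the replicate numbers mark is not given in the sources used here, and its part in this difference was not tested.

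Within each replicate number the other HIF targets had a higher median difference from their controls than the glycolytic enzymes. The median log2 difference of 6j from control was −0.15, −0.11 and 0.17 in replicates 1, 2 and 3 for the 15 glycolytic enzymes, and 0.15, 0.54 and 0.75 for the 10 other HIF targets. Over all rows these medians were −0.0039, 0 and 0.0022. The glycolytic enzymes were higher with 6j in 4, 5 and 11 of 15 genes in replicates 1, 2 and 3, and the other HIF targets in 8, 9 and 10 of 10 genes. In the fit over all libraries the medians differed by 0.48. Genes are not replicates, so the difference has no test. It ran from 0.41 to 0.76 over the fits that left out 1 library, and without either library numbered 3 it was 0.49, with medians of −0.13 for the glycolytic enzymes and 0.36 for the other HIF targets. PFKFB2 (0.91, adjusted p = 0.0385), EPAS1 (0.71, adjusted p = 0.0345) and VEGFA (0.99, adjusted p = 0.0386, edgeR) were DEGs in that fit as well.

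**Figure D4:**
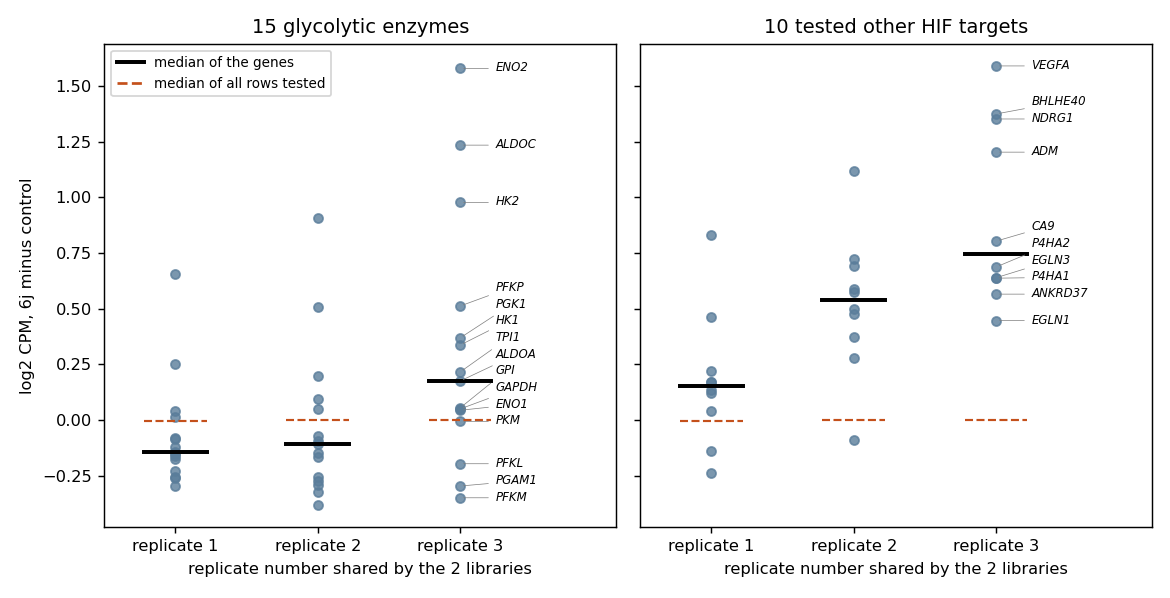
Difference of log2 CPM between 6j and control within each replicate number for the 15 glycolytic enzymes and the 10 other HIF targets tested, with 1 point per gene, the median as a bar and the median of all rows dashed. The medians of the other HIF targets (0.15, 0.54 and 0.75) lie above those of the glycolytic enzymes (−0.15, −0.11 and 0.17) at each number, and both are highest in replicate 3.

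When the model was blocked on replicate number, 4 of the 42 genes were DEGs (9.52%), beside 6.47% of all rows, PDK4 being the addition. At the adjusted p alone 14 genes passed (33.3%), beside 26.9% of all rows, 10 of them higher and 4 lower with 6j, against 13.1% and 13.9% of all rows. SLC2A1 (adjusted p = 0.0136), EGLN1 (0.00828), EGLN3 (0.00891), P4HA1 (0.002), P4HA2 (0.0229) and TXNIP (0.0372) then passed upward below the fold threshold, and PFKL (0.013) and PGAM1 (0.00128) passed downward with PFKM and LDHB (all edgeR). BHLHE40 did not pass in this fit (adjusted p = 0.158).

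The balance between isozymes was set out for 8 pairs as the log2 ratio of their CPM within each library, as a description with no test. HK2 over HK1 was 0.88, 0.86 and 0.54 in the controls and 1.06, 1.16 and 1.18 with 6j. The groups do not overlap, and the mean was 0.38 higher with 6j beside a pooled SD of 0.14. ALDOC over ALDOA was −4.35, −4.21 and −4.12 in the controls and −4.11, −3.60 and −3.06 with 6j, a shift of 0.63 (pooled SD 0.38) with groups that barely part. ALDOA shares exons on the same strand with AC093512.2, which had 75.8 to 114 CPM. In the other 6 pairs the groups overlap as a whole. The shift was 1.13 (pooled SD 0.75) for ENO2 over ENO1, 0.91 (0.45) for PFKFB4 over PFKFB3 and 0.26 (0.30) for LDHA over LDHB. It was 0.11 (0.62) for EGLN3 over EGLN1, −0.07 (0.19) for P4HA2 over P4HA1 and −0.17 (0.15) for SLC16A3 over SLC16A1. Within replicate numbers 1, 2 and 3, ENO2 over ENO1 was higher with 6j by 0.81, 1.05 and 1.54, and PFKFB4 over PFKFB3 by 0.58, 1.00 and 1.16. The SDs of these differences were 0.37 and 0.30 (n = 3 numbers), smaller than the pooled SDs of the groups. HK2 over HK1 was higher by 0.18, 0.31 and 0.64, and ALDOC over ALDOA by 0.24, 0.60 and 1.06. For HK2 over HK1 and ALDOC over ALDOA the SDs of the differences were 0.24 and 0.41, larger than their pooled SDs of 0.14 and 0.38.

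Around these genes, 6 lists of nearby pathways were read from the same fit. The machinery that controls HIF gave 0 DEGs among 11 genes tested (5 at an unadjusted p under 0.05, beside 26.2% of all rows, and 0 DEGs by DESeq2). VHL, the ubiquitin ligase subunit that removes HIF alpha, had 71.7, 67.9 and 79.9 CPM in the controls and 90.5, 105 and 97.9 CPM with 6j, and rose by 0.42 on the log2 scale (adjusted p = 0.0264, edgeR). It is named after its values were seen, as are all genes of these lists that were not DEGs.

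Among 27 further HIF targets tested, 24 had a positive estimate, the median log2 fold change was 0.54, and STC2 and DDIT4 were DEGs. Over all rows, 8086 of 15957 had a positive estimate, and 2.48% were DEGs that rose. STC2, a secreted glycoprotein, had 23.6, 38.4 and 34.98 CPM in the controls and 110, 184 and 174 CPM with 6j (log2 fold change 2.27, adjusted p = 0.00994, edgeR). DDIT4, an inhibitor of mTORC1, had 328, 291 and 373 CPM in the controls and 487, 467 and 578 CPM with 6j (0.63, adjusted p = 0.0155, edgeR). STC2, DDIT4 and VEGFA are also known to be induced by ATF4 in stress of the endoplasmic reticulum or lack of amino acids. STC2 was a DEG in all 6 fits that left out 1 library, and DDIT4 in 2. WSB1 rose by 0.58 (adjusted p = 0.0408) and MIF fell by 0.32 (adjusted p = 0.0467, edgeR), both within the fold threshold. Blocked on replicate number, BNIP3L (0.95, adjusted p = 0.00152) and INSIG2 (0.68, adjusted p = 0.00164, edgeR) were DEGs too, in a fit where 6.47% of all rows were. Replicate 3 was the highest of both groups in 20 of the 27 genes, beside 20.9% of all rows.

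The pyruvate dehydrogenase complex, which the kinases above regulate, and the citrate cycle mostly had negative estimates. Of 19 genes tested 15 had a negative estimate, as had 7871 of all 15957 rows, and the median log2 fold change was −0.22. The 3 libraries of 6j lay below the 3 controls in 11 genes, beside 15.8% of all rows. PDHA1 (−0.33), PDHB (−0.33), OGDH (−0.45), SUCLG1 (−0.36), SDHA (−0.38) and FH (−0.31) fell at adjusted p of 0.019 to 0.0498 (edgeR), none by more than the fold threshold. Rows that passed the adjusted p and were lower made up 4.37% of all rows. PDHA1, the catalytic subunit that the kinases phosphorylate, had 318, 306 and 312 CPM in the controls and 264, 242 and 241 CPM with 6j. The DEGs of this list were PDP1 (0.59, adjusted p = 0.0113) and PDP2 (0.79, adjusted p = 0.0401, edgeR), which rose and encode the phosphatases that undo the work of the kinases. DEGs that rose were 2.48% of all rows. PDP1 had 31.0, 30.7 and 26.7 CPM in the controls and 42.9, 46.8 and 43.4 CPM with 6j. PDP1 was a DEG in 4 of the 6 fits that left out 1 library, and PDP2 in 2.

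In each of the last 3 lists 1 gene was a DEG, and it rose, while DEGs that rose made up 2.48% of all rows. HKDC1, a hexokinase of low abundance, was at 1.805, 3.27 and 2.24 CPM in the controls and 7.63, 14.3 and 16.7 CPM with 6j (log2 fold change 2.40, adjusted p = 0.0077, edgeR), among 12 transport and glycolysis isozymes tested that the 43 genes do not hold. PCK2, the mitochondrial phosphoenolpyruvate carboxykinase and a known ATF4 target, was at 53.2, 61.5 and 43.6 CPM in the controls and 130, 138 and 126 CPM with 6j (1.32, adjusted p = 0.00125, edgeR), among 11 genes of gluconeogenesis and the pentose phosphate path. MLXIPL, which encodes the glucose-sensing factor ChREBP, was at 3.29, 4.06 and 2.18 CPM in the controls and 13.7, 16.2 and 6.70 CPM with 6j (1.94, adjusted p = 0.018, edgeR), among 6 genes of its axis. In all 3 genes the groups do not overlap. PCK2 and HKDC1 were DEGs in all 6 fits that left out 1 library and MLXIPL in 3.

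**Figure D5:**
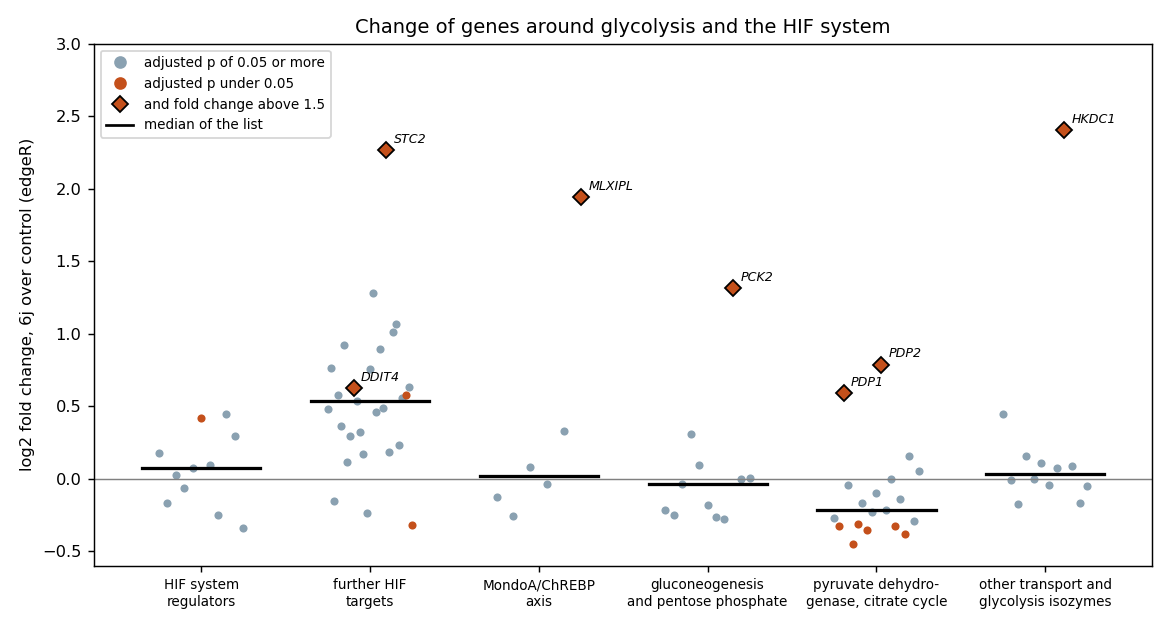
Log2 fold change of 6j over control for the tested genes of 6 lists around glycolysis and HIF, with 1 point per gene, a bar at the median of each list, orange for an adjusted p under 0.05 and diamonds for DEGs. The further HIF targets have a median of 0.54 and the citrate cycle list one of −0.22, and all 7 DEGs are higher with 6j.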

How the data were processed

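RNA of MHCC-97H cells was sequenced after 16 h with 10 μM 6j or solvent, in 3 libraries per group. The deposited table holds raw counts as whole numbers, 1 row per gene and 1 column per library. HISAT2, StringTie and GRCh38 are named in the submitters' processing notes, while the counting program, its use of strand and the annotation are not given in the sources used here, and the counts may be rounded estimates. Coordinates and exon lengths came from GENCODE version 29 (GRCh38), which holds all 19974 Ensembl identifiers but none of the 5471 rows that the assembly step added. Symbols of 27 rows that had turned into dates were replaced. All 6 columns of counts were used.

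The counts were filtered with filterByExpr (about 10 counts in enough libraries, 15 in total) and fitted by edgeR 4.0.16 (R 4.3.3, limma 3.58.1) with TMM factors, robust quasi-likelihood and no covariate. P-values were adjusted by Benjamini-Hochberg over all 15957 rows tested, and a DEG needed a fold change over 1.5, the fold threshold of the study, and an adjusted p under 0.05, where the study's text names p without adjustment. The standard error was derived from the F statistic. Log2 CPM had a prior count of 2, and levels between genes were compared per kilobase of exon union. The union covers all annotated transcripts of a gene and can exceed the length of the transcript present. A count of 0 was read as up to 3 counts, which covers counting error only. P-values rest on the spread between libraries of a group, which exceeds counting error. The fits were run on simulated counts with known changes, built with no difference between replicate numbers. Those counts cannot show how the fits behave under such differences in the real libraries. DESeq2 1.42.0, RLE and upper quartile factors, other filters, other thresholds, left-out libraries and a replicate block were alternatives, and fits that left out both libraries of 1 number were added after the data were seen.

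The 43 genes, their roles and the 6 lists around them were written from general knowledge with earlier results of these data known. Named in full are the DEGs, the 1 or 2 genes of each role with the largest log2 fold change and the most abundant gene of each role. From the lists around them DEGs are named, and any other gene there was chosen with its values in view. Control and 6j libraries carry the same replicate numbers, whose meaning the sources do not give. Deviations from the group means correlated at 0.171, 0.18 and 0.312 within a number and at −0.231 to 0.0795 across numbers. Deviations sum to 0 within a group, so these correlations are not independent. On this basis the numbers paired libraries in the differences within replicate numbers and in the replicate block, while the main fit left them out. The pairing was thus read from these same data. Exons are shared with another gene of the table on the same strand in 5 of the 43 genes and on the opposite strand in 7.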

Additional observations from a re-analysis of the deposited data

How the results depend on the processing

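Of the gene-level values recomputed for named genes, 659 kept direction and side of the threshold, 27 lost and 5 gained the call, and 23 changed sign, all of the last in genes that were not DEGs. The number of DEGs over all rows was 574 (396 higher and 178 lower with 6j). It was 1033 (640 and 393) with the replicate block, 1462 (765 and 697) at the adjusted p with no fold threshold, and 1136 (753 and 383) at an unadjusted p under 0.05 with the fold threshold. It was 58 (50 and 8) without both libraries numbered 1 and 55 (51 and 4) without both numbered 2. When 1 library was left out it ran from 186 to 772, with 135 to 482 higher and 51 to 290 lower.

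Of the 42 genes 1 to 6 were DEGs when 1 library was left out, all of them higher. The lowest count came without control replicate 1 or 6j replicate 2 and the highest without 6j replicate 1. The count was 0 without both libraries numbered 1, 1 without both numbered 2 (higher) and 3 without both numbered 3, and it was 5 with no fold threshold, 2 of them lower. PFKFB2 was lost only without both libraries numbered 1, where 4 libraries remain. With 1 library left out, the median log2 fold change ran from −0.19 (without 6j replicate 3) to 0.10 for the glycolytic enzymes and from 0.22 (6j replicate 3 left out) to 0.85 (6j replicate 1 left out) for the other HIF targets, and the difference of the medians from 0.41 to 0.76. The replicate block changed the call of PDK4 and of no other of the 43 genes.

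Signs changed in genes with estimates near 0 or with uneven replicates. Without both libraries numbered 3 the log2 fold change was −0.13 for HK1, −0.042 for ALDOA, −0.079 for TPI1, −0.053 for PGK1 and −0.11 for ANKRD37. PFKFB3 was at 0.074 without both numbered 1 and at 0.0029 without both numbered 2, and SLC16A3 at 0.023 and 0.065. With 1 library left out the ranges were −0.22 to 0.23 for HK1, −0.43 to 0.17 for PFKFB3, −0.085 to 0.11 for ALDOA, −0.11 to 0.10 for TPI1, −0.18 to 0.30 for PGK1, −0.10 to 0.057 for SLC16A3, −0.24 to 0.50 for PDK3, −0.071 to 0.84 for CA9, −0.046 to 0.93 for EGLN3 and −0.16 to 0.41 for ANKRD37. The cause of these changes was not tested. With 3 libraries per group, genes whose replicates differ widely (NDRG1, ADM, EGLN3, SLC2A3 and ENO2) were not called at the size of their estimates here.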
